A study of Mus musculus with 8 samples.

Results

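The promoters of autosomal protein-coding genes that carried almost no DNA methylation in untreated mammary tumors are described here in 8 reduced representation bisulfite sequencing (RRBS) libraries. A promoter was taken as 1000 bases on either side of the gene start in the GENCODE M21 annotation, and its methylation as the methylated reads over all reads of its CpG cytosines, with a read counted once for each cytosine it covers. Members were chosen by their value in vehicle replicate 1, which had to be below 5%, among promoters with at least 3 cytosines at 10 or more reads in all 8 libraries. This rule took 8560 of 11576 promoters tested (73.9%), and 14 gene symbols stand for 2 entries each among them. Of 20807 autosomal protein-coding genes, 9231 had too few covered cytosines to be tested. Since vehicle replicate 1 chose the members, its values are given as a description and it enters no test of the members it chose. Vehicle replicate 2 is thus their only untreated reference. Vehicle replicate 1 entered tests only where vehicle replicate 2 chose the members instead.

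The tumors grew from NIC-5231, 1 mouse mammary tumor cell line, in mammary fat pads of NSG mice, a host without working lymphocytes. The hosts were 5 to 7 weeks old when they received the cells, and once tumors could be felt, groups of 5 were injected every 2 days with vehicle (saline, PEG and DMSO), with C29 at 10 mg/kg, with 5-azadC at 1 mg/kg or with both drugs at these doses. C29 is an inhibitor of the nuclear receptor ERRα, and DNA methyltransferases are trapped on DNA by 5-azadC, also called decitabine. A group has 2 libraries, each from the pooled DNA of 2 mice, and cells of the host are part of the tumor.

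Most promoters of genes that all cells use lie in CpG islands, stretches rich in CpG dinucleotides that are kept free of methylation in healthy tissue. DNA methyltransferases copy and add methyl groups, and TET enzymes oxidize them on the way to removal. In tumors some of these islands acquire methylation, often at genes of developmental regulators, while the rest of the genome tends to lose it.

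The promoters on which the results turn are shown by the stretch that was measured. Sequences run 5′ to 3′ on the strand of the gene in the GRCm38 build, and capitals mark the CpGs measured in all 8 libraries. Farp2 (chr1:93512951-93513043, plus strand, intron) and Igsf5 (chr16:96361845-96361925, plus strand, intron) were higher with C29, and Plekhd1 (chr12:80692490-80692567, plus strand, upstream of the start) was higher with both drugs. Cxcr4 (chr1:128592294-128592412, minus strand), Jmjd8 (chr17:25828763-25828862, plus strand) and Hoxb5 (chr11:96303178-96303273, plus strand) are stretches upstream of the start that were high in vehicle replicate 2 and lower in the treated libraries. Ildr2 (chr1:166254022-166254138, plus strand) and Oprd1 (chr4:132144526-132144603, minus strand), also upstream, were low in vehicle replicate 1 alone, and Esrra (chr19:6921814-6921975, minus strand, upstream) is the promoter of the gene for ERRα. Farp2, Igsf5, Plekhd1, Jmjd8 and Oprd1 were chosen after their values were seen.
Farp2: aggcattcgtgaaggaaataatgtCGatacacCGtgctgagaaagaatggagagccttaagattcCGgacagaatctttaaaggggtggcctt
Igsf5: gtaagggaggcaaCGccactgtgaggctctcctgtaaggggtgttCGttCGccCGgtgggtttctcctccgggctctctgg
Plekhd1: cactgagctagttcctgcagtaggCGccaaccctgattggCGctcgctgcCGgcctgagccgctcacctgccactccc
Cxcr4: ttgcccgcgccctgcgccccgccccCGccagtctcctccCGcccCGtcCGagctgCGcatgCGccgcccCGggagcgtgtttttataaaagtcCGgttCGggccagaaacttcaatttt
Jmjd8: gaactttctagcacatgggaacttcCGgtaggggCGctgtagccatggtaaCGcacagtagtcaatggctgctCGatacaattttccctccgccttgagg
Hoxb5: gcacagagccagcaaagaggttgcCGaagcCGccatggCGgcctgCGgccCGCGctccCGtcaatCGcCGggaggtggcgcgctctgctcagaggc
Ildr2: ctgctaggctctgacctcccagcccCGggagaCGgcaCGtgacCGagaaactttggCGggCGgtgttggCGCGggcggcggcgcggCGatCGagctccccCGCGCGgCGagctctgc
Oprd1: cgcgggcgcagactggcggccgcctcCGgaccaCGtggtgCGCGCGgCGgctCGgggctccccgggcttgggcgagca
Esrra: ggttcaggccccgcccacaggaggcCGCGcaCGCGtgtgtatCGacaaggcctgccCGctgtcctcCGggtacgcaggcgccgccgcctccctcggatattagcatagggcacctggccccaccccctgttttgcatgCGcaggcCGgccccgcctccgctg

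The Farp2 stretch holds 3 measured CpGs, the Igsf5 stretch 4 and the Plekhd1 stretch 3, so these promoter values rest on few positions. The Ildr2 stretch holds 14 of the 18 measured cytosines of its promoter, the Hoxb5 stretch 9 of 14, the Oprd1 stretch 7 of 14 and the Esrra stretch 9 of 15. Percentages given for these genes are for whole promoters unless single cytosines are named. The Cxcr4 stretch contains the NRF1 core, the GC box and the TATA box searched for further on, Esrra contains the NRF1 core and Jmjd8 the ETS motif.

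Total reads over cytosines were 70254846 and 70790628 in the vehicle libraries (replicates 1 and 2), 69842185 and 73325247 with C29, 63888872 and 81299065 with 5-azadC, and 57947338 and 51359825 with the combination. The combination was thus the shallowest group. Control DNA without methylation gave 0.216% to 0.329% methylated reads in the 8 libraries, and fully methylated DNA 97.5% to 98.3%, so the lowest promoter values lie at or below what unmethylated DNA itself shows. Members had a median of 20 measured cytosines (range 3 to 173) and a median of 936 reads per promoter and library, and 7929 had at least 100 reads in every library while 631 had fewer in at least 1. Over all cytosines of a library, in members or not, median reads per cytosine were 26 and 26 with vehicle and 27 and 23 with C29. They were 25 and 30 with 5-azadC, and 23 and 21 with the combination. Members had a median of 45.3 reads per cytosine. Intervals given in the text are 95% Wilson intervals, and for a count of 0 the limit given is 3 counts over the reads. Both cover counting error only, since copies made by PCR were not marked and reads that span several cytosines count more than once.

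Members overlap. In all, 2071 of them (24.2%) shared at least 1 cytosine with a neighbor, in 1052 neighboring pairs of which 937 lay on opposite strands, and 1692 had exactly the same cytosines as another member. The 8560 promoters held 190085 distinct cytosines. A pair such as Pfn4 and Fam228b therefore gives 1 measurement under 2 names.

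Within the limit that chose them, 4088 members had no methylated read in vehicle replicate 1, 2801 lay above 0% and below 1%, 881 at 1% to below 2% and 790 at 2% to below 5%. The share of these classes that reached 10% in vehicle replicate 2 was 1.37%, 0.214%, 1.59% and 8.73%, so members near the limit were methylated in the other untreated library more often than those far below it. Just inside the limit were Itga5 at 4.98%, Esyt1 at 4.99% and Col5a1 at 4.99%, and just outside it Bnc1 at 5.00%, Agps at 5.01% and Eomes at 5.03%. Of the promoters left out, 2141 lay at 5% to below 50% and 875 at 50% or more.

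Over the members, mean promoter methylation was 0.577% in vehicle replicate 1, which chose them, and 0.985% in vehicle replicate 2. C29 libraries had 0.939% and 0.883% (mean 0.911% ± 0.0399, SD, n = 2), 5-azadC libraries 0.797% and 0.840% (0.818% ± 0.0300, SD, n = 2) and combination libraries 0.844% and 0.907% (0.876% ± 0.0448, SD, n = 2). All 6 treated libraries lay below vehicle replicate 2. With reads pooled over all members, vehicle replicate 2 was at 0.802% and the treated libraries at 0.683% to 0.765%. With 1 untreated library outside the choice of members, no spread between untreated tumors was available to set beside these means.

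The number of members that reached 5% was 376 in vehicle replicate 2, 335 and 298 with C29, 282 and 270 with 5-azadC, and 322 and 352 with the combination. At 10% there were 145 in vehicle replicate 2, 109 and 110 with C29, 87 and 92 with 5-azadC, and 101 and 135 with the combination. At 25% the same order of libraries gave 29, then 24 and 25, then 17 and 20, then 16 and 17, and at 50% it gave 4, then 5 and 5, then 3 and 0, then 1 and 2. No treated library had more members at 5%, 10% or 25% than vehicle replicate 2 did, while both C29 libraries had 1 more at 50%. The order at 5%, 10% and 25% did not hold for each library with the vehicle libraries exchanged.

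When the roles of the vehicle libraries were exchanged, 8529 promoters were below 5% in vehicle replicate 2, and 345 of these reached 5% in vehicle replicate 1. The treated libraries then had 298 to 367 at 5%, and C29 replicate 1 (367) and combination replicate 2 (359) lay above the untreated library. At 10% vehicle replicate 1 had 140 and the treated libraries 111 to 150, C29 replicate 1 (150) lying above it. At 25% vehicle replicate 1 had 32 and the treated libraries 18 to 33, combination replicate 1 (33) lying above it. Among the 8184 promoters below 5% in both vehicle libraries, C29 libraries had 3 and 3 at 25% or more, 5-azadC libraries 5 and 1, and combination libraries 6 and 5. Those 8184 were chosen to be low in both vehicle libraries, so a higher count with a drug follows from the choice and was not tested.

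**Figure D1:**
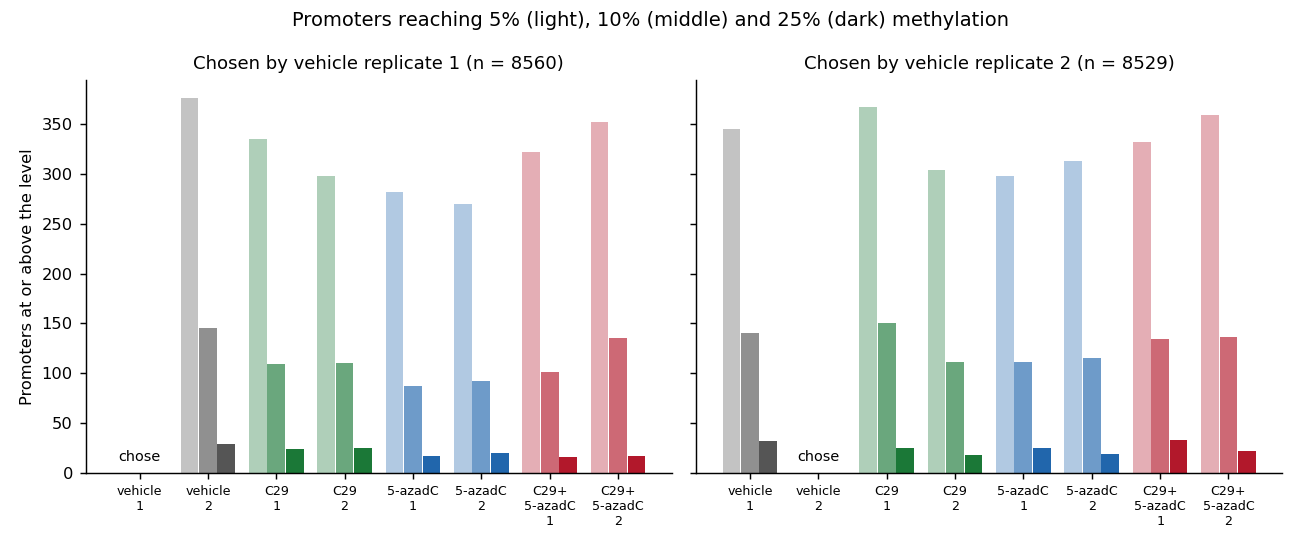
Number of promoters (vertical axis) at or above 5%, 10% and 25% methylation in each library (horizontal axis), for promoters chosen by vehicle replicate 1 (left) and by vehicle replicate 2 (right). In the left panel vehicle replicate 2 has 376, 145 and 29, and the treated libraries have 270 to 352, 87 to 135 and 16 to 25.

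Most members stayed low in every library. Below 5% in all 8 libraries were 7489 members (87.5%), and 537 (6.27%) had no methylated read in any of the 8. At least 1 of the 7 libraries outside the choice reached 10% at 403 members and 25% at 81 members. Of the 29 members at 25% or more in vehicle replicate 2, 13 reached that level in no other library. The same held for 4 of 24 and 6 of 25 in the C29 libraries and 8 of 17 and 6 of 20 in the 5-azadC libraries. In the combination libraries it held for 5 of 16 and 7 of 17. The share over all promoters was not counted.

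To ask which members gained methylation with a drug, methylated and unmethylated reads of both treated libraries were compared with vehicle replicate 2 in a logistic likelihood-ratio test, fitted on all 11576 promoters. Promoters counted as called had a q (Benjamini-Hochberg over all promoters) under 0.01 together with 25 points or more between the pooled values. The 3 drug comparisons share vehicle replicate 2, so they are not independent of each other, and with 1 reference library the test compares these libraries and not the treatments. Its q takes every count as an independent molecule, so like the intervals it covers counting error only and reads too small where counts are copies or share a read. Each member called by it had an edgeR FDR of 1 for both drugs and their interaction over 7 libraries. With 4 groups over the 7 libraries edgeR called 0 members in each comparison, against 0% (C29), 0.00864% (5-azadC) and 0.00864% (combination) of all promoters, which is 0, 1 and 1 promoter. At an unadjusted p under 0.05 it had 205 members (2.39%, against 2.22% of all promoters), 219 (2.56%, against 2.41%) and 237 (2.77%, against 2.54%). In these bulk libraries a larger share of methylated cells and a higher level in each cell cannot be told apart.

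Over all members the difference from vehicle replicate 2 had a median of 0 points with each drug and a mean of -0.0724 points for C29, -0.161 with 5-azadC and -0.116 with the combination. More than 5 points above vehicle replicate 2 were 113, 93 and 120 members, and more than 5 points below it 183, 210 and 192. Over all promoters tested the counts were 702, 608 and 700 above and 1354, 1490 and 1419 below, so the excess below was not particular to members. Counting differences of any size, more members were higher than that library (47.2%, 47.0% and 43.0%) than lower (32.0%, 33.0% and 32.7%). Over all promoters 45.1%, 43.6% and 41.3% were higher and 39.2%, 41.2% and 40.2% lower, and a pool of 2 libraries stands here against 1 library. Both libraries of a group reached 10% at 52 members under C29, 28 with 5-azadC and 31 with the combination. At 20, 9 and 14 of these vehicle replicate 2 was below 10%. The same was not counted over all promoters, so these counts show nothing particular to members.

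With C29, 6 members were called gained (0.0701% of members, against 0.492% of all promoters tested), in 5 of them with both libraries above vehicle replicate 2. None had 100 reads in each library, so all were chosen after their values were seen. Farp2, an exchange factor for small GTPases, was at 1.30% and 0% in the vehicle libraries, 49.5% and 52.1% with C29, 0% and 0% with 5-azadC, and 21.8% and 48.6% with the combination. The 4 libraries with C29 were higher than vehicle replicate 2 and both 5-azadC libraries, and no member was called gained in all 3 drug groups. The intervals were 44.6% to 54.4% and 43.2% to 61.0% in the C29 libraries, and the 0% of 321 reads in vehicle replicate 2 allows up to 0.935%. The gain was 50.1 points (q = 1.99e-68 from counting error only, edgeR FDR 1 for C29). Its 3 cytosines lie in an intron, 897, 905 and 938 bases past the gene start. They were not alike in all libraries, with 73.9%, 0% and 73.9% in combination replicate 2.

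Hapln4, a link protein of the extracellular matrix, was at 0% in vehicle replicate 1 (52 reads), 25% in vehicle replicate 2, 73.8% and 68.4% with C29, 31.0% and 42.7% with 5-azadC, and 38.6% and 27% with the combination. It was higher with C29 than in any other library, and every library but vehicle replicate 1 was at 25% or more. Igsf5, an immunoglobulin-like protein of cell junctions that the annotation lists as 2 gene entries with the same 4 cytosines, was at 0% and 19% with vehicle, 38.5% and 62.1% with C29, 0% and 4.79% with 5-azadC, and 2.22% and 23.1% with the combination. Its gain was 32.4 points, and of its 4 cytosines 1 was at 76.2% in vehicle replicate 2 and the other 3 at 0%. Chn2, a GTPase-activating protein, was at 0% and 20.1% with vehicle and 42.1% and 57.7% with C29, but the difference of unweighted means over its 5 cytosines was -4.97 points, so its gain depends on weighting by reads.

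Atp8b3, a phospholipid-transporting ATPase of the germline, was called gained with C29 by 26.2 points (17.9 with unweighted means) although C29 replicate 2 was at 0% (86 reads) and C29 replicate 1 at 57.1%. It was also the 1 member called gained with 5-azadC (0.0117% of members, against 0.354% of all promoters tested). There both libraries were high, at 56.6% and 48.8%, against 0% and 7.73% with vehicle (gain of 43.8 points, q = 7.28e-31), and the combination had 18.2% and 42.7%. The 5-azadC count became 9 without replicate 2 and 3 without replicate 1, and the C29 count 10 without C29 replicate 1. Both counts were 0 where promoters were taken as 1000 bases upstream only, and where at least 100 reads in each library were asked for, a setting chosen after seeing the data. With vehicle replicate 1 as the reference, for members chosen by vehicle replicate 2, the counts of gains were 2 (C29, 0.0234% of members, against 0.475% of all promoters), 0 (5-azadC, 0%, against 0.242%) and 5 (combination, 0.0586%, against 0.363%).

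With the combination, 6 members were called gained (0.0701% of members, against 0.466% of all promoters tested). Spata32, named for spermatogenesis, was at 3.70% and 2.29% with vehicle, 27% and 16.0% with C29, 19.4% and 6.90% with 5-azadC, and 18.9% and 47.0% with the combination, a gain of 28.7 points (q = 2.14e-29). Each treated library was above vehicle replicate 2. Sumf1, the enzyme that activates sulfatases, was at 3.21% and 3.75% with vehicle, 15.1% and 6.81% with C29, 7.41% and 17.7% with 5-azadC, and 18% and 43.6% with the combination. Its gain was 25.6 points with reads pooled (q = 3.46e-52) and 3.19 points as a difference of unweighted means over its 12 cytosines. Spata32 and Sumf1 were the called members that had at least 100 reads in each library, and the other 4 were chosen after their values were seen.

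Plekhd1, a protein with a pleckstrin homology domain, had no methylated read in the vehicle and C29 libraries, 3.85% and 6.45% with 5-azadC and 43.5% and 23.5% with the combination (gain of 32.7 points, q = 6.65e-08). Only 50 reads in vehicle replicate 2 and 30 in C29 replicate 2 stood behind these zeros, which allow up to 6.00% and 10%. Farp2 was called here too, by 28.0 points. The calls at Pclaf, which binds the replication clamp PCNA, and at Npas3, a basic helix-loop-helix factor of the brain, each rested on combination replicate 1. Pclaf was at 45.3% and 0% in the combination libraries and Npas3 at 37.3% and 0%, and with unweighted means their gains were 22.7 and 18.6 points, below 25.

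**Figure D2:**
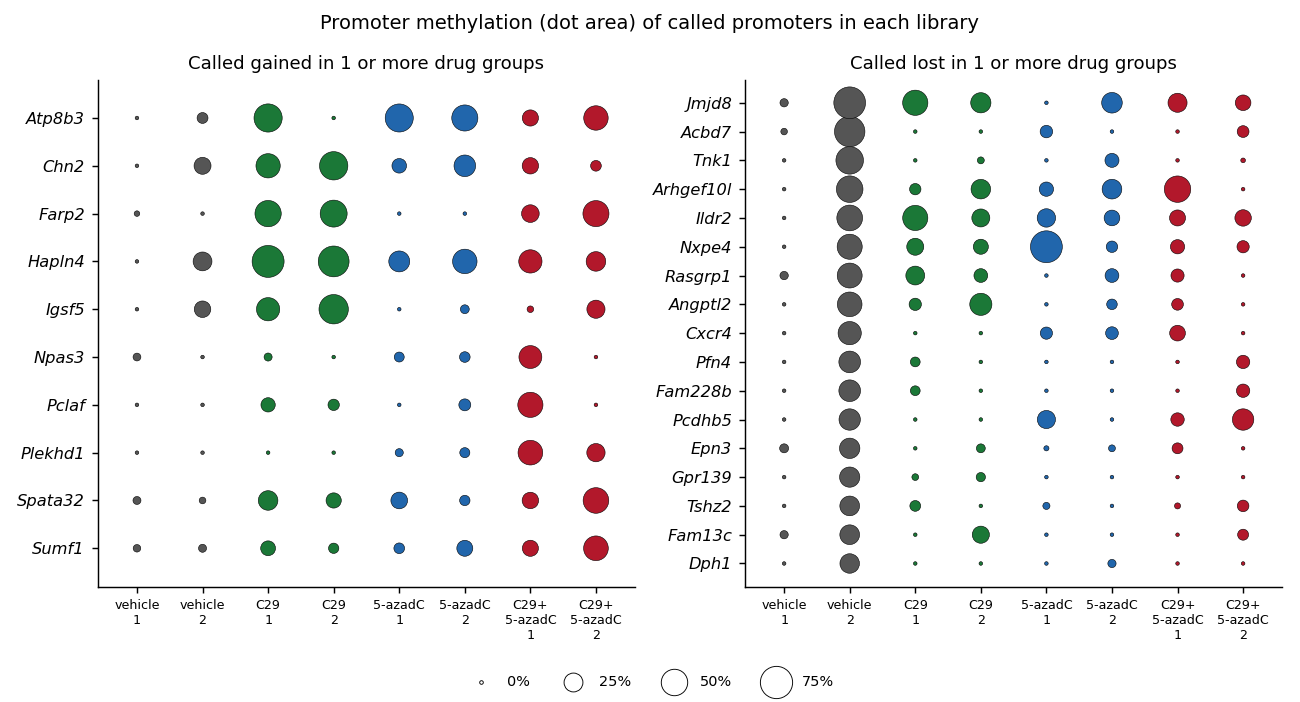
Promoter methylation in each library (horizontal axis) of the members called gained (left) or lost (right) by 25 points in at least 1 drug group, 1 gene per line, with dot area growing with percent methylation. On the right the highest dot is vehicle replicate 2 for 15 of 17 promoters, from Jmjd8 at 72.6% to Dph1 at 26.8%.

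The 11 promoters called gained in any group stand for 10 genes, since both entries of Igsf5 count, and the 6 gains with C29 are 5 distinct sets of cytosines. Of the 11, 8 had all their cytosines within 150 bases and 7 had 3 to 5 cytosines, against 20.4% and 9.02% of all members. Cytosines so close can be covered by the same reads, and 9 of the 11 had fewer than 100 reads in at least 1 library. With at least 10 points in place of 25, 38 members were called gained under C29 (0.444% of members, against 2.78% of all promoters), 24 with 5-azadC (0.280%, against 2.53%) and 35 with the combination (0.409%, against 2.73%). Both treated libraries lay above vehicle replicate 2 at 29 of the 38, 17 of the 24 and 21 of the 35.

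Some of these smaller gains are described here after their values were seen, all with at least 100 reads in each library. Scnn1a, the alpha subunit of the epithelial sodium channel, was at 0% and 10.6% with vehicle, 23.5% and 40.7% with C29, and 0% in all 4 libraries with 5-azadC. Slc7a11, the cystine transporter, was at 0% and 0.272% with vehicle, 13.6% and 12.8% with C29, 0% and 0% with 5-azadC, and 0.781% and 23.6% with the combination. At both genes the C29 libraries were above vehicle replicate 2, while combination replicate 2 was high at Slc7a11 only.

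Htra4, a serine protease, was at 0% and 0% with vehicle, 2.24% and 0% with C29, 15.3% and 8.57% with 5-azadC, and 18.7% and 0% with the combination. Iars, isoleucyl-tRNA synthetase, was at 4.46% and 6.57% with vehicle, 3.51% and 39.6% with C29, 39.7% and 17.4% with 5-azadC, and 0% and 8.61% with the combination. At Iars the 5-azadC libraries were both above vehicle replicate 2, and the C29 libraries lay far apart. Pcdh9, a protocadherin, was at 3.55% and 1.47% with vehicle, 6.85% and 15.5% with C29, 7.93% and 2.78% with 5-azadC, and 17.7% and 8.68% with the combination, each treated library being above vehicle replicate 2.

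Fam221b was at 4.68% and 2.49% with vehicle, 24.5% and 13.2% with C29, 4.24% and 6.47% with 5-azadC, and 10.6% and 12.8% with the combination. The 4 libraries with C29 were above vehicle replicate 2 and both 5-azadC libraries. Megf10, a receptor of engulfment, was at 3.70% and 6% with vehicle, 15% and 16.7% with C29, 26.2% and 26.6% with 5-azadC, and 31.6% and 0% with the combination, so that 5 of 6 treated libraries were above vehicle replicate 2 and 1 was at 0%. Adam6b, a metalloprotease of the ADAM family, was at 4.55% and 20.8% with vehicle and 61.2% and 26.1% with C29, with 15.1% or less in the libraries with 5-azadC. Cntln, a centriole protein, was high in C29 replicate 2 (13.6%) and combination replicate 1 (27.2%) and at or below 0.664% in the other 6 libraries. With unweighted means 4 of these gains were below 10 points, Fam221b under C29 (14.9 points pooled and 6.48 unweighted) and, for the combination, Slc7a11 (13.8 and 8.76), Htra4 (11.8 and 9.33) and Megf10 (10.2 and 4.21).

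Loss could be seen where vehicle replicate 2 was well above the limit that vehicle replicate 1 had met. Against vehicle replicate 1 itself the rule leaves less than 5% to lose. Called lost by 25 points were 12 members under C29 (0.140% of members, against 1.23% of all promoters tested), 14 with 5-azadC (0.164%, against 1.60%) and 13 with the combination (0.152%, against 1.49%). At 10 points they numbered 74 (0.864%, against 6.86%), 71 (0.829%, against 7.21%) and 75 (0.876%, against 6.90%). In each comparison the share of members was below that of all promoters tested, whose higher levels leave more to lose. With the vehicle libraries exchanged, so that vehicle replicate 2 chose the members and replicate 1 was the reference, 5 (0.0586%, against 1.00% of all promoters), 4 (0.0469%, against 1.19%) and 5 (0.0586%, against 1.22%) members were called lost by 25 points.

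In all 17 promoters were called lost in at least 1 group, 12 of them at 0% in vehicle replicate 1, and in 15 of the 17 every treated library was below vehicle replicate 2. Of the 17, 16 had all their cytosines within 150 bases, 11 had 3 to 5 cytosines and 12 had fewer than 100 reads in at least 1 library. Both Pfn4 and Fam228b count, on the same cytosines, so the distinct sets lost were 11 (C29), 13 (5-azadC) and 12 (combination). With at least 5 cytosines the losses were 3 (C29), 6 (5-azadC) and 4 (combination), and with at least 100 reads in each library, a setting chosen after seeing the data, 3, 4 and 3. Cxcr4, the receptor of the chemokine CXCL12, was at 0% in vehicle replicate 1 and 38.4% in vehicle replicate 2 (interval 32.8% to 44.3%, 271 reads). It was at 0% and 0% with C29, 9.95% and 10.9% with 5-azadC, and 17.1% and 0% with the combination. Its level dropped by 38.4 (C29), 27.9 (5-azadC) and 30.7 (combination) points. The zero in vehicle replicate 1 rests on 191 reads and allows up to 1.57%, a low value that the choice of members fixed.

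At single cytosines Cxcr4 was 100% methylated in vehicle replicate 2 at the 4 positions from -57 to -74 bases, each with 19 reads, 20% and 20.3% at -21 and -26, and 0% at -49, -79 and -93. In 5-azadC replicate 1 positions -57 and -70 were at 100% of 11 reads and those between and beside them at 0%. Neighboring positions thus went from 0% to 100% within a few bases in the same library. How many molecules these reads stand for was not tested.

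Jmjd8, a protein of the endoplasmic reticulum, had the highest value of any member in vehicle replicate 2, at 72.6% (interval 65.3% to 78.8%), against 4.07% in vehicle replicate 1. It was at 45.5% and 28.9% with C29, 0% and 30% with 5-azadC, and 25.6% and 16.9% with the combination, so it dropped by 34.1, 49.3 and 52.2 points and still lay above vehicle replicate 1 in every treated library but 5-azadC replicate 1.

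Acbd7, a protein that binds acyl-CoA, was at 2.22% and 66.7% with vehicle, 0% and 0% with C29, and 10.5% or less in the other treated libraries. Tnk1, a tyrosine kinase, was at 0% and 54.5% with vehicle and at or below 13.4% in the treated libraries. Rasgrp1, an exchange factor for Ras, was at 4.17% and 44.4% with vehicle, 25% and 12.9% with C29, 0% and 12.9% with 5-azadC, and 11.7% and 0% with the combination. These 3 were lost in each drug comparison, all measured against the same library.

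Hoxb5, a homeobox factor, had more reads than these, at least 614 in each library. It was at 1.89% and 24.4% with vehicle, 0.154% and 1.46% with C29, 0% and 0% with 5-azadC, and 2.35% and 0% with the combination. The difference was -23.5, -24.4 and -23.2 points, just short of 25 but past 10 points in each comparison. Sirpa, the receptor for CD47 on myeloid cells, was at 0% and 26.3% with vehicle and between 0.601% and 7.06% in the 6 treated libraries. Tshz2, a zinc finger homeobox factor, was at 0% and 27.4% with vehicle and at most 8.91% in the treated libraries, and Epn3, an adaptor of endocytosis, at 4.95% and 29.3% with vehicle and at most 7.74%. With unweighted means Epn3 dropped by 17.5 (C29) and 18.3 (5-azadC) points, below the 25 that its calls with reads pooled had passed.

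Nxpe4 went both ways. It was at 0% and 44.9% with vehicle, 20.2% and 15.6% with C29, 13.9% and 10% with the combination, and 73.2% and 8.60% with 5-azadC, where 1 library lay above vehicle replicate 2 and 1 below. Arhgef10l was at 0% and 50.6% with vehicle, 8.50% and 26.9% with C29, 14% and 27.3% with 5-azadC, and 50% and 0% with the combination. Angptl2, a secreted angiopoietin-like protein, was at 0% and 43.4% with vehicle, 10.1% and 34.8% with C29, and at most 9.09% in the 4 libraries with 5-azadC. Pcdhb5, a protocadherin, was at 0% and 32.4% with vehicle, 0% and 0% with C29, 23.1% and 0% with 5-azadC, and 12.2% and 32.5% with the combination. Angptl2 dropped by 24.4 points with the combination when means were unweighted.

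Ildr2, a membrane protein, was called lost with 5-azadC and with both drugs and was not low in any treated library. Its difference was -27.7 and -29.3 points with reads pooled but -16.0 and -11.7 with unweighted means, below 25 points, from 47.4% in vehicle replicate 2, and the treated libraries were at 17% to 45.2%. Dph1, an enzyme of diphthamide synthesis, was at 0% and 26.8% with vehicle, 4% in 5-azadC replicate 2 and 0% in the other 5 treated libraries. Gpr139, an orphan receptor, was at 0% and 28.9% with vehicle and at most 5.33% in the treated libraries. The promoter shared by Pfn4, a profilin, and Fam228b was at 0% and 33.3% with vehicle, at 6.06% and 0% under C29, at 0% and 0% with 5-azadC and at 0% and 12.1% with the combination. Fam13c was at 4.03% and 27.4% with vehicle and 0% and 20.5% with C29, and at most 7.89% in the 4 libraries with 5-azadC. Of all these losses, Cxcr4, Nxpe4, Epn3, Sirpa, Hoxb5, Ildr2 and Tshz2 come from the naming rule and the others were chosen after their values were seen. Whether the drugs or vehicle replicate 2 set these differences cannot be told apart.

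At 7 members the value was 10% or more in all 7 libraries outside the choice, and apart from Ildr2 these were chosen after their values were seen. Ildr2 was at 0% in vehicle replicate 1 (430 reads, allowing up to 0.698%) and at 47.4% in vehicle replicate 2, with 45.2% and 22.7% with C29, 23.8% and 17% with 5-azadC, and 17.8% and 18.8% with the combination. Oprd1, the delta opioid receptor, was at 0.816% and 25.4% with vehicle, 25% and 29.9% with C29, 26.3% and 39.2% with 5-azadC, and 36.3% and 20.6% with the combination. Foxp2, a forkhead factor, was at 2.17% and 20.7% with vehicle and 15% to 26.9% in the treated libraries, and Cckbr, a gastrin receptor, at 1.79% and 16.7% with vehicle and 15.9% to 36.0% in the treated libraries. Hapln4, Zfp61 and Pllp were the other 3. In Oprd1 and Foxp2 the treated libraries lay on both sides of vehicle replicate 2, and the low value in vehicle replicate 1 is fixed by the choice of members.

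A second comparison used replicated libraries. The 7 libraries other than vehicle replicate 1 were fitted with edgeR's quasi-likelihood test. The drugs 5-azadC and C29 were additive factors, 4 libraries with a drug against 3 without. On simulated data with a wide spread between libraries this fit missed the changed promoters, so its zeros do not show that nothing changed. For 5-azadC, 0 members were called at an FDR below 0.05, and 1 of the 11576 promoters tested (0.00864%), Gm10800, which is not a member. Gm10800 was at 91.7% in vehicle replicate 2, 92.0% and 91.8% with C29, 86.5% and 86.4% with 5-azadC, and 87.9% and 88.1% with the combination, over at least 1223606 reads. At an unadjusted p below 0.05, 152 members were higher with 5-azadC (1.78%, against 1.37% of all promoters) and 186 lower (2.17%, against 1.74%). An overdispersion-corrected logistic F test on the same libraries called 0 members and 0 of the 11576 promoters. At an unadjusted p below 0.05 it had 649 members (7.58%, against 7.34% of all promoters).

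For C29, edgeR called 0 members and 0% of all promoters tested. At an unadjusted p below 0.05, 148 members were higher (1.73%, against 1.39% of all promoters) and 199 lower (2.32%, against 1.83%). The F test had 642 members there (7.5%, against 6.81% of all promoters) and called 0 members and 0 of all promoters. For the interaction of the drugs, edgeR called 0 members and 0% of all promoters, with 90 members higher at an unadjusted p below 0.05 (1.05%, against 0.959%) and 160 lower (1.87%, against 1.52%). These shares of members stand above those of all promoters in each fit, and no member passed the correction. Members are 73.9% of all promoters, so the shares of all promoters are largely their own. Of the 361 promoters at an unadjusted edgeR p below 0.05 for 5-azadC, 338 were members, and of the 373 for C29, 347. Why few other promoters were among them was not tested.

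The members with the smallest p are given as values, since none passed (edgeR FDR 1 for each), and they were chosen after their values were seen. Farp2 came first among those higher with C29, higher in 4 of 4 libraries with it. Rps6kl1, a kinase-like protein, came first among those higher with 5-azadC, at 0% in vehicle replicate 2, 0.168% and 0% with C29, 8.28% and 5.92% with 5-azadC, and 4.21% and 10.4% with the combination. The 4 libraries with 5-azadC were above the 3 without it, and vehicle replicate 1 was at 1.61%. Mreg, a melanosome transport protein, was at 0% in vehicle replicate 2, 0% and 0.0541% with C29, 2.04% and 1.44% with 5-azadC, and 0.851% and 1.24% with the combination.

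In the other direction, the shared promoter of Cdc26, a subunit of the anaphase-promoting complex, and Prpf4, a splicing factor, was at 2.71% in vehicle replicate 2, 1.68% and 2.04% with C29, and at most 0.116% in the 4 libraries with 5-azadC. It was also at 0% in vehicle replicate 1. The shared promoter of Ostf1 and Nmrk1 was at 1.14% in vehicle replicate 2, 0.0486% and 0.0393% with C29, 0.621% and 1.04% with 5-azadC, and 0% and 0% with the combination, and Nfix, a nuclear factor I protein, at 0.815%, then 0.049% and 0%, then 0.541% and 0.432%, then 0% and 0%. At both, the libraries with C29 were below the 3 without it, and vehicle replicate 1 was at 0%. Rbpms, an RNA-binding protein, came first for the interaction, at 0% in vehicle replicate 2, 1.85% and 2.07% with C29, 1.78% and 8.13% with 5-azadC, and 0.0528% and 0.0921% with the combination. It was above vehicle replicate 2 with each drug alone and near it with both, and vehicle replicate 1 was at 1.95%.

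For sequence content, each promoter was read over 2001 bases of GRCm38. Members had a median CpG observed over expected of 0.663 and a median GC content of 55.0%, against 0.638 and 55.0% over all promoters tested, 0.572 at 5% to below 50% and 0.395 at 50% or more. The 11 members called gained had a median of 0.486 and the 17 called lost 0.389, and they were chosen by the values just given, so this is a description. The share of promoters that were members went from 30.4% where the ratio was below 0.4 to 68.7%, 82.5% and 87.8% in the next classes. Among members, 9.28% of those below 0.4 reached 10% in vehicle replicate 2, against 2.22%, 1.17% and 0.6% in the next classes.

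**Figure D3:**
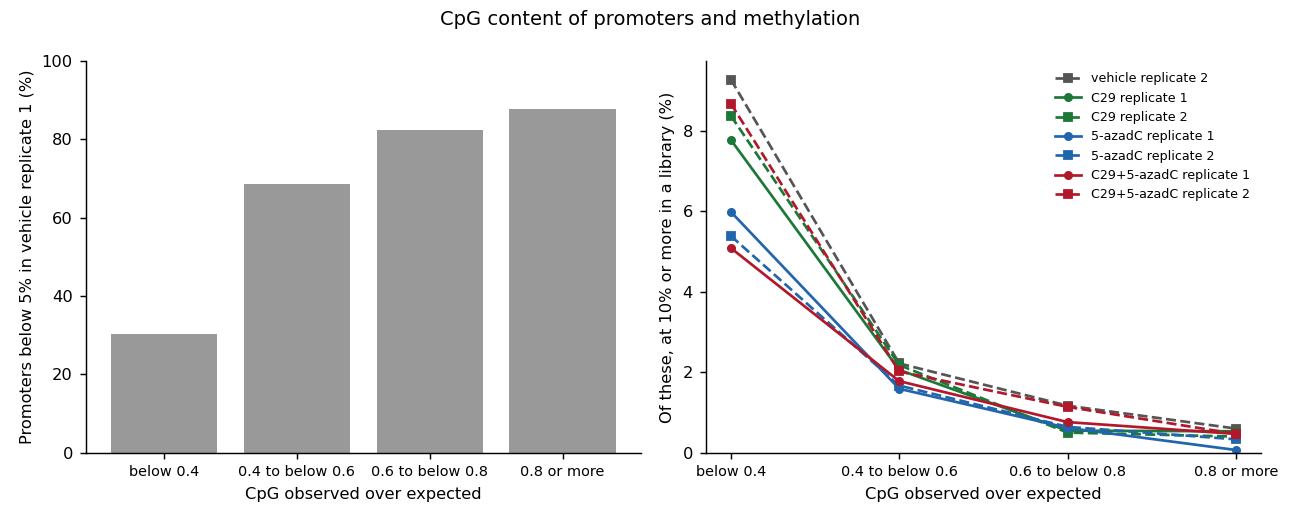
Left, percent of promoters below 5% in vehicle replicate 1 by class of CpG observed over expected. Right, percent of these at 10% or more in each of the other 7 libraries, which is 5.09% to 9.28% below 0.4 and 0.0667% to 0.6% at 0.8 or more.

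Members with few measured cytosines reached 10% more often. In vehicle replicate 2 it was 2.96% of members with 6 to 10 cytosines, 1.32% with 11 to 20 and 0.538% with 21 or more. Of the 772 members with 3 to 5 cytosines, 7.12% reached 10% in vehicle replicate 2, 6.99% and 7.25% with C29, 5.31% and 5.57% with 5-azadC, and 5.05% and 7.12% with the combination. The share in the untreated library was within the range of the treated ones.

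Short motifs were searched on both strands and counted as present or absent. The GC box GGGGCGGGG was present in 46.1% of members and 43.2% of all promoters tested, the ETS motif CCGGAAGT in 15.5% and 13.1%, the NRF1 core GCATGCGC in 11% and 9.82%, and the YY1 motif AAGATGGCG in 7.76% and 6.31%. The cAMP response element TGACGTCA was present in 5.96% and 5.43% and TATAAA in 49.6% and 48.9%. The ERR element TCAAGGTCA, the site that ERRα binds, was present in 4.26% of members and 4.22% of all promoters. These shares are descriptions and were not tested.

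Along the promoter, methylation of single cytosines followed a valley. In vehicle replicate 2 the mean was 3.60% at -1000 to -750 bases, 0.589% and 0.545% on either side of the start, and 1.47% at 750 to 1000 bases. In the first of these bins the treated libraries had 2.88% to 3.63%, and 5-azadC replicate 1 (2.88%) was the lowest. All 8 libraries were lowest within 250 bases of the start and had their highest value in the bin farthest upstream.

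**Figure D4:**
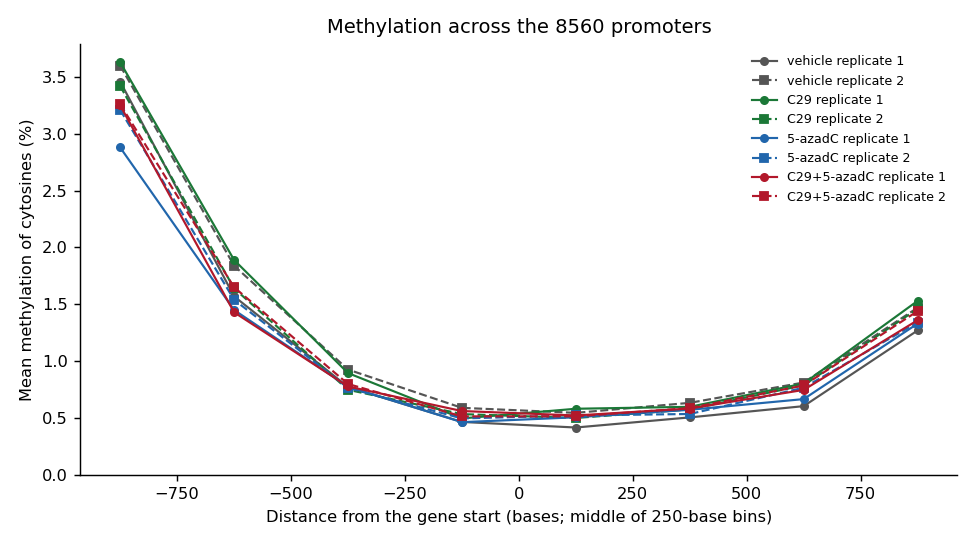
Mean methylation in percent of the cytosines of members (vertical axis) by distance from the gene start in bins of 250 bases (horizontal axis), 1 line per library. All lines run from 2.88% to 3.63% at the upstream end to between 0.416% and 0.589% beside the start.

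Gene lists were described by their counts. Among 15 lists, the share of tested promoters that were members was highest for proteasome subunits (28 of 29) and respiratory chain and ATP synthase subunits (57 of 59), followed by cytosolic ribosomal proteins (62 of 66) and DNA replication and cell cycle genes (52 of 56). It was 19 of 23 for DNA methylation and methionine cycle enzymes, 25 of 31 for ErbB receptors, ligands and signaling, 12 of 15 for ETS factors, 23 of 31 for interferon and antigen presentation, 22 of 31 for nuclear receptors, 20 of 32 for tumor suppressors, 10 of 16 for epithelial markers and 8 of 14 for the factors named by the study. Against 73.9% of all promoters, developmental transcription factors had 31 of 191 members (16.2%), and germline genes 0 of 16 and stroma and blood markers 0 of 3. The other lists were near or above the share of all promoters, except tumor suppressors, epithelial markers and the study's factors, which had fewer. Mean methylation of the member genes on the developmental list was 1.62% and 2.91% with vehicle and 2.06% to 3% in the treated libraries, and of those on the respiratory list 0.390% in vehicle replicate 2 and 0.364% to 0.581% in the treated libraries.

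No member of any list was called at 25 points with any drug. In a given comparison and direction, 0.0117% to 0.164% of all members were called, against 0.354% to 1.60% of all promoters tested. At such shares a count of 0 says little on the lists. At 10 points, Psmd5, a proteasome assembly chaperone listed with the proteasome, was called gained with C29, at 2.29% and 0% with vehicle, 18.8% and 11.9% with C29, 0% and 4.82% with 5-azadC, and 0% and 0% with the combination. Neurog2, a proneural factor, was called gained with C29 through replicate 2 alone (0% and 18.6%, against 2.91% and 1.26% with vehicle). Foxd1, a forkhead factor, was called lost in each drug comparison, at 2.53% and 20.9% with vehicle and 2.79% to 9.57% in the treated libraries, though with unweighted means the combination differed by -8.95 points. Dapk1, a kinase of cell death, was called lost with the combination (3.84% and 12.5% with vehicle, 1.15% and 0.0633% with the combination) with a difference of -12.1 points with reads pooled but -5.78 with unweighted means, and Tmem173, the DNA sensor adaptor STING, with C29 (2.53% and 13.1% with vehicle, 0% and 0% with C29).

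**Figure D5:**
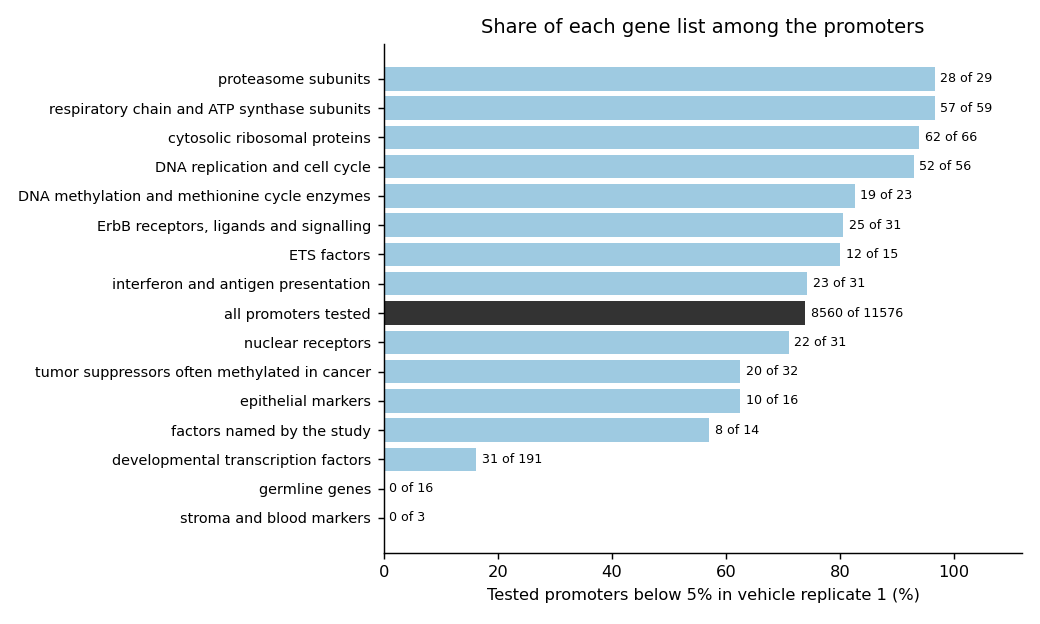
Percent of the tested promoters of each gene list that were below 5% in vehicle replicate 1 (horizontal axis), with counts beside the bars and all promoters tested in black. Developmental transcription factors stand at 16.2% and all promoters at 73.9%.

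Of the genes the study names around ERRα and methylation, the members were Esrra, Dnmt3a, Tet2, Ahcy, Mat2a, Tead2, Zbtb20 and Nr2c2. Esrra, the gene of ERRα itself, was at 0.244% and 0% with vehicle, 1.85% and 0.619% with C29, and 0% in all 4 libraries with 5-azadC. Ahcy, which hydrolyzes S-adenosylhomocysteine, was at 0.160% and 0% with vehicle, 0% and 0% with C29, 0.581% and 0.657% with 5-azadC, and 0.0537% and 0.894% with the combination. Ahcy differed from vehicle replicate 2 by 0.624 points with 5-azadC (logistic q = 5.00e-04) and Esrra by 1.26 points with C29 (q = 1.46e-04). Both thus had a q under 0.01, from counting error only, and differences far below 25 points. How many of all promoters had such a q at any size of difference was not counted, so these q do not set the genes apart. None of the 8 genes reached 10 points with any drug.

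Mat2a, a methionine adenosyltransferase, was at 2.73% in C29 replicate 1 and at 0% in the other 7 libraries (q = 4.14e-04 for C29). Dnmt3a, a de novo methyltransferase, reached at most 1.66% and Tet2, a methylcytosine dioxygenase, at most 0.500%. Tead2 reached at most 1.68%, Zbtb20 1.17% and Nr2c2 0.778%. A q under 0.01 was also found for Dnmt3a (-0.493 points) and Tead2 (-0.491) under C29, both lower than vehicle replicate 2. Under the combination it was found for Tead2 (1.01) and Zbtb20 (0.802), both higher. These q, like that of Mat2a, cover counting error only and have no share of all promoters to stand beside. Not members were Tet3 at 92.3%, Irf4 at 70.3%, Foxe1 at 69.2%, Pou3f3 at 30.3%, Mat1a at 26.5% and Gfi1 at 10.8% in vehicle replicate 1, and Dnmt1, Tdg, Vdr and Hoxa3 could not be tested.

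Among the epithelial markers, members included Cldn3, Cldn7, Esrp1, Esrp2, Grhl2, St14, Spint1, Spint2 and Ovol1. Cldn3, a tight junction protein, was at or below 2.19% in every library, and St14, a membrane protease, at or below 0.363%. Cldn7, another tight junction protein, reached 6.03% in C29 replicate 2, and in 5-azadC replicate 1 the protease inhibitor Spint1 reached 5.77% and the splicing regulator Esrp2 4.11%. Cdh1 (7.71% in vehicle replicate 1), Epcam (15.2%), Krt18 (10.4%), Cldn4 (12.2%), Ehf (14.1%) and Prom2 (7.76%) lay above the limit. Of the markers of blood, vessels and stroma, 3 could be tested and none was a member. Col1a2, a collagen chain of fibroblasts, was at 28.4% and 21% with vehicle, 19.4% and 11.2% with C29, 23.3% and 34.7% with 5-azadC, and 57.6% and 56.8% with the combination. Kdr, the VEGF receptor of endothelium, was at 12.8% and 24.7% with vehicle and 6.76% to 19.6% in the treated libraries. The libraries with both drugs were thus the highest at Col1a2, and the part of host cells in the values of members was not tested.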

How the data were processed

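RRBS libraries of 8 tumor DNA pools were analyzed. According to their notes, the authors used FastQC 0.11.8, Trim Galore 0.4.1, Bismark 0.20.0 and methylKit 1.7.0 with mm10 (GRCm38). Per the file headers, the authors deposited the fraction of methylated reads at each cytosine of a CpG on 1 strand, which Bismark called. They also deposited the count of reads that cover it, with no normalization.

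Methylated reads were computed here from both and summed per promoter (Python 3.11.15, NumPy 2.4.6, SciPy 1.17.1, pandas 2.3.3, matplotlib 3.10.9). Drug groups were compared with vehicle replicate 2 by logistic likelihood-ratio tests. The fit over 7 libraries was run in R 4.3.3 (edgeR 4.0.16, limma 3.58.1). The logistic tests against vehicle replicate 2 and the additive edgeR fit were tested on simulated data. With a wide spread between simulated libraries the logistic test also called unchanged promoters and edgeR missed the changed ones, and the F test against vehicle replicate 2 missed them at every spread. Groups follow the labels.

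Genes were named by a rule. It takes up to 8 called gains and up to 5 losses per drug group, if no library has fewer than 100 reads and the treated pair lies beyond vehicle, up to 10 gains called in all 3 groups, up to 5 edgeR calls per factor, 3 promoters on either side of the limit, up to 4 called members per gene list and the genes the study names. The 15 gene lists, like the members, were chosen with earlier results of these data known. The alternatives changed read and cytosine minima, promoter extent, size of the difference, weighting, test, reference library and limit.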

Additional observations from a re-analysis of the deposited data

How the results depend on the processing

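Counts of members called against vehicle replicate 2 depended on the settings. As reported, 6 members were gained and 12 lost with C29, 1 and 14 with 5-azadC, and 6 and 13 with the combination. Values that moved are given here, and those not given kept to within 1.5 times. With at least 5 reads per cytosine, 3 members were gained in each drug group. With 20 reads, C29 lost 7, 5-azadC gained 0 and lost 8, and the combination gained 3 and lost 7. With at least 5 cytosines, C29 gained 2 and lost 3, 5-azadC lost 6, and the combination gained 3 and lost 4. With promoters of 500 bases on either side, C29 and the combination gained 3 each, and with 1000 bases upstream only, C29 and 5-azadC gained 0. At 10 points the counts were 38 and 74 (C29), 24 and 71 (5-azadC), and 35 and 75 (combination). Unweighted means gave 3 gained with 5-azadC.

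With edgeR over 4 groups, all 6 counts were 0. They were also 0 with the overdispersion-corrected F test, which has 1 residual degree of freedom against vehicle replicate 2 and called 0 of 11576 promoters, so its zeros say nothing on the members. With members chosen by vehicle replicate 2 and replicate 1 as the reference, C29 gained 2 and lost 5, 5-azadC gained 0 and lost 4, and the combination lost 5. Members below 2% gave 9 lost with 5-azadC and 3 gained with the combination. A pair of settings was chosen after seeing the data. Reads divided by the number of cytosines gave 2 gained and 7 lost with C29, 9 lost with 5-azadC and 6 lost with the combination. At least 100 reads in each library gave 0 and 3 with C29, 0 and 4 with 5-azadC, and 2 and 3 with the combination. The cause was not tested.

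With 1 treated library left out, gains were 7 to 10 (C29), 3 to 9 (5-azadC) and 7 to 8 (combination), and losses 11 to 13, 16 to 18 and 13 to 15. The counts of members by edgeR over 7 libraries were 0 with all 7 and also without any 1 of them. Of all promoters these fits each called 1 for 5-azadC and 0 for C29. A count already at 0 says little on stability. Group means over members (C29, 5-azadC, combination, vehicle replicate 2) were 0.911%, 0.818%, 0.876% and 0.985% as reported. They became 0.732%, 0.689%, 0.727% and 0.802% with reads pooled, 0.0507%, 0.0454%, 0% and 0% as medians, 0.704%, 0.620%, 0.667% and 0.727% for members below 2%, and 0.850%, 0.765%, 0.793% and 0.889% with 20 reads. Unweighted means gave 0.956% for vehicle replicate 2.

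With the replicate number as a block (replicate block), edgeR called 0 members for 5-azadC and 0 for C29. Of all promoters it called 1 for 5-azadC and 0 for C29. At an unadjusted p under 0.05 it had 305 members (3.56%, against 2.89% of all promoters) and 271 (3.17%, against 2.60%). The correlation of the difference between replicates among the 4 groups was -0.0541 to 0.0926 over 11576 promoters, so the numbers pair nothing. The comparisons with vehicle replicate 2 could not be paired, because they have 1 untreated library.

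Promoters with few cytosines or reads limit what can be said, since 631 members had fewer than 100 reads in a library. A single untreated library gives no spread between untreated tumors. Each library pools DNA of 2 mice, so variation between mice cannot be seen. Reads per promoter count cytosines on the same read more than once.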

Other observations

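Methylation in members often sat at single cytosines. Of the 190085 cytosines in members, 95.2% to 96.7% had no methylated read in a given library. At 50% or more were 383 and 727 with vehicle, 628 and 470 with C29, 546 and 416 with 5-azadC, and 670 and 639 with the combination. Members holding such a cytosine numbered 327 (3.82%) and 577 (6.74%) with vehicle, 460 (5.37%) and 357 (4.17%) with C29, 431 (5.04%) and 307 (3.59%) with 5-azadC, and 527 (6.16%) and 533 (6.23%) with the combination. Many more members thus held a highly methylated cytosine than reached 50% as a whole. Vehicle replicate 1, which chose the members, had fewer than vehicle replicate 2, and the treated libraries lay between 307 and 533.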
